A study of Mus musculus with 20 samples.

Results

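10 cytokine genes were followed through the RNA-sequencing of CD8+ T cells treated with interleukin 21 (IL-21) or with a designed mimic of it. They were Ifng, Tnf, Il2, Il10, Il24, Lif, Osm, Lta, Ltb and Csf2, 10 of the 23992 gene symbols in the deposited tables. They were chosen by name with earlier results of these data known, and each was represented by its longest RefSeq transcript. All cells were wild-type CD8+ T cells taken by negative selection from spleens of C57BL/6J mice aged 6 to 8 weeks. Every group, the controls included, had been activated for 48 hours on bound anti-CD3 (2 µg/mL) with soluble anti-CD28 (1 µg/mL) and rested overnight, and RNA was taken 24 hours after the addition of murine IL-21 (mIL-21) or of the designed protein 21h10. The unstimulated groups got no cytokine, and their labels give no time. The doses of either protein were 100 pM and 1 nM in experiment 1, and 10 nM and 100 nM in experiment 2, and both experiments had unstimulated cells of their own. All 5 groups in an experiment were sequenced in duplicate (n = 2). The labels call them duplicates with no word on mice or cultures, while the study's methods describe RNA-seq replicates as independent, from different preparations or donors. The p-values set differences between groups against the spread between duplicate libraries, estimated over the 5 groups of an experiment together.

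Cytokines are secreted or membrane-bound proteins with which T cells act on other cells. IL-21 signals through the IL-21 receptor and the common gamma chain to JAK kinases and STAT factors, STAT3 above all, and IL-10 is a well-known target of this pathway in T cells. IFN-γ, TNF, IL-2, lymphotoxin α and GM-CSF (Csf2) are products of activated CD8+ T cells, made mostly on contact with antigen. The cells of these libraries had rested overnight off the activating antibodies, and the treated ones then had 24 hours with cytokine. In bulk RNA, fewer cells that make a transcript and less of it per cell cannot be told apart.

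Several of the genes are neighbours in the genome (GRCm38, positions from RefSeq). Osm (chr11:4236785-4241026) and Lif (chr11:4257568-4272514), both on the plus strand, are 16541 bases apart. Ltb (chr17:35194507-35196305), Tnf (chr17:35199367-35202007) and Lta (chr17:35203165-35205578) follow each other with 3061 and 1157 bases between them. Il24 (chr1:130882074-130887411) and Il10 (chr1:131019845-131024970) are 132433 bases apart. The remaining genes are Il2 (chr3:37120713-37125954), Ifng (chr10:118441046-118445894) and Csf2 (chr11:54247270-54249899).

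The 250 bases before the start site were at hand for 6 of the 10 genes, from RefSeq on GRCm38.p6 (the entry for Lta lay within its transcript and was left out), and 4 of them are shown because these genes responded in 4 different ways below. Capitals mark matches to any of 5 motifs searched on both strands, namely TTCNNNGAA (STAT type), TGANTCA (AP-1), GGG and CC with 5 bases between them (NF-κB type), AGGTGT (T-box) and GGAAAA (NFAT), and matches may overlap.
Ifng, chr10:118440796-118441045, plus strand: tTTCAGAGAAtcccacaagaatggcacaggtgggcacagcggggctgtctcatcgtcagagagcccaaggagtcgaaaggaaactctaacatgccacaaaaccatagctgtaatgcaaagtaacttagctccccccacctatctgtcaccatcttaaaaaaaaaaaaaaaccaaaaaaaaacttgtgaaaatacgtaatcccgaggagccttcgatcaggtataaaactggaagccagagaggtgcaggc
Tnf, chr17:35202008-35202257, minus strand: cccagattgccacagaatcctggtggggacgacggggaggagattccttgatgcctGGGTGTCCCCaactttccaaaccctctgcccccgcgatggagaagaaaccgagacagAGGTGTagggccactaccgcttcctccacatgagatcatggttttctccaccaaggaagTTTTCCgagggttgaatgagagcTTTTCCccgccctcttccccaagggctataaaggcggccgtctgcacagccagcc
Lif, chr11:4257318-4257567, plus strand: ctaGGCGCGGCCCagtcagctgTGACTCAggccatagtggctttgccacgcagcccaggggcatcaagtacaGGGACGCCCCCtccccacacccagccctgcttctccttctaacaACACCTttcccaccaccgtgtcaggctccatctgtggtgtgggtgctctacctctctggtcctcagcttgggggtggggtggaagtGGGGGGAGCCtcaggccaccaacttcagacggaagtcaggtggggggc
Ltb, chr17:35194257-35194506, plus strand: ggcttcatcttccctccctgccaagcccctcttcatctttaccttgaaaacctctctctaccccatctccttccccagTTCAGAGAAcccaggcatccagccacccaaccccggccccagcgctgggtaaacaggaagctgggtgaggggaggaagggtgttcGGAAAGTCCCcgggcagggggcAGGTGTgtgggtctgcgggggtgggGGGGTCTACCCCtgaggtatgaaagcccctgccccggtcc
The STAT-type motif was in 2 of the 6 promoters (Ifng and Ltb) and in 7.02% of all 32851 promoters of that length. The capitals at the far 5′ end of the Ifng stretch are its STAT-type match, and the last matches of the Tnf stretch are of the NFAT type, which was in 2 of the 6 (Tnf and Il2) and in 20.4% of all. The AP-1 motif was in 1 of the 6 (Lif) and in 6.75% of all, the NF-κB-type motif in 4 of the 6 and 45.8% of all, and the T-box motif in 3 of the 6 and 11.8% of all. A match is a stretch of letters and not a measured binding site.

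Reads on genes ran from 36824740 to 94070730 per library in experiment 1 and from 27072917 to 43300094 in experiment 2. The 9 T cell markers, Cd8a and Cd8b1 among them, were all present. Their summed level was 1601 to 2435 RPKM (reads scaled to transcript length and to mapped reads) over the 20 libraries. Cd8a alone ran from 102 to 150 RPKM and Cd8b1 from 151 to 298. Of the lists for other cell types, the myeloid one had the widest range, from 0.648 RPKM in unstimulated cells of experiment 1 to 13.7 RPKM under 21h10 at 1 nM, and from 1.45 RPKM in unstimulated cells of experiment 2 to 17.5 RPKM under mIL-21 at 10 nM. Itgam, an integrin that activated CD8+ T cells can also carry, ran from 0.119 to 16.6 RPKM, whereas S100a8 and S100a9 had 0 reads in every library and Lyz2 at most 12. The list for CD4+ or regulatory T cells, mostly Zbtb7b, went from 5.29 RPKM in unstimulated cells to between 11.2 and 12.4 in the treated groups of experiment 1, and from 5.23 to between 5.35 and 7.41 in experiment 2. The B cell list, mostly Cd79b, ran from 4.51 to 10.98 RPKM over the groups of experiment 1, with 7.61 in unstimulated cells, and went from 7.64 to between 3.39 and 4.29 in experiment 2. The dendritic list ran from 0.298 to 1.68 RPKM, highest under 21h10 at 1 nM, and the list for mast cells and basophils from 0.303 to 1.83, highest under mIL-21 at 100 pM. The NK cell list ran from 0.858 RPKM under 21h10 at 1 nM to 2.28 under mIL-21 at 100 pM. Of the 3 markers listed for gamma-delta T cells only Sox13 was in the deposited data, with at most 11 reads in a library. These cells could thus hardly be assessed. The part of these markers in the results below was not tested.

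Ltb was the most abundant of the 10 transcripts in all 10 groups, and Il2 the least. Without cytokine, the order of mean levels in experiment 1 was Ltb, Lta, Csf2, Tnf, Osm, Ifng, Lif, Il24, Il10 and Il2. With 21h10 at 1 nM, Il10 and Osm followed Ltb at 47.4 ± 1.9 and 45.5 ± 4.9 RPKM (SD, n = 2), and these neighbours did not differ beyond their spread. Il10 had been ninth without cytokine, at 0.309 ± 0.018 RPKM (SD, n = 2).

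**Figure D1:**
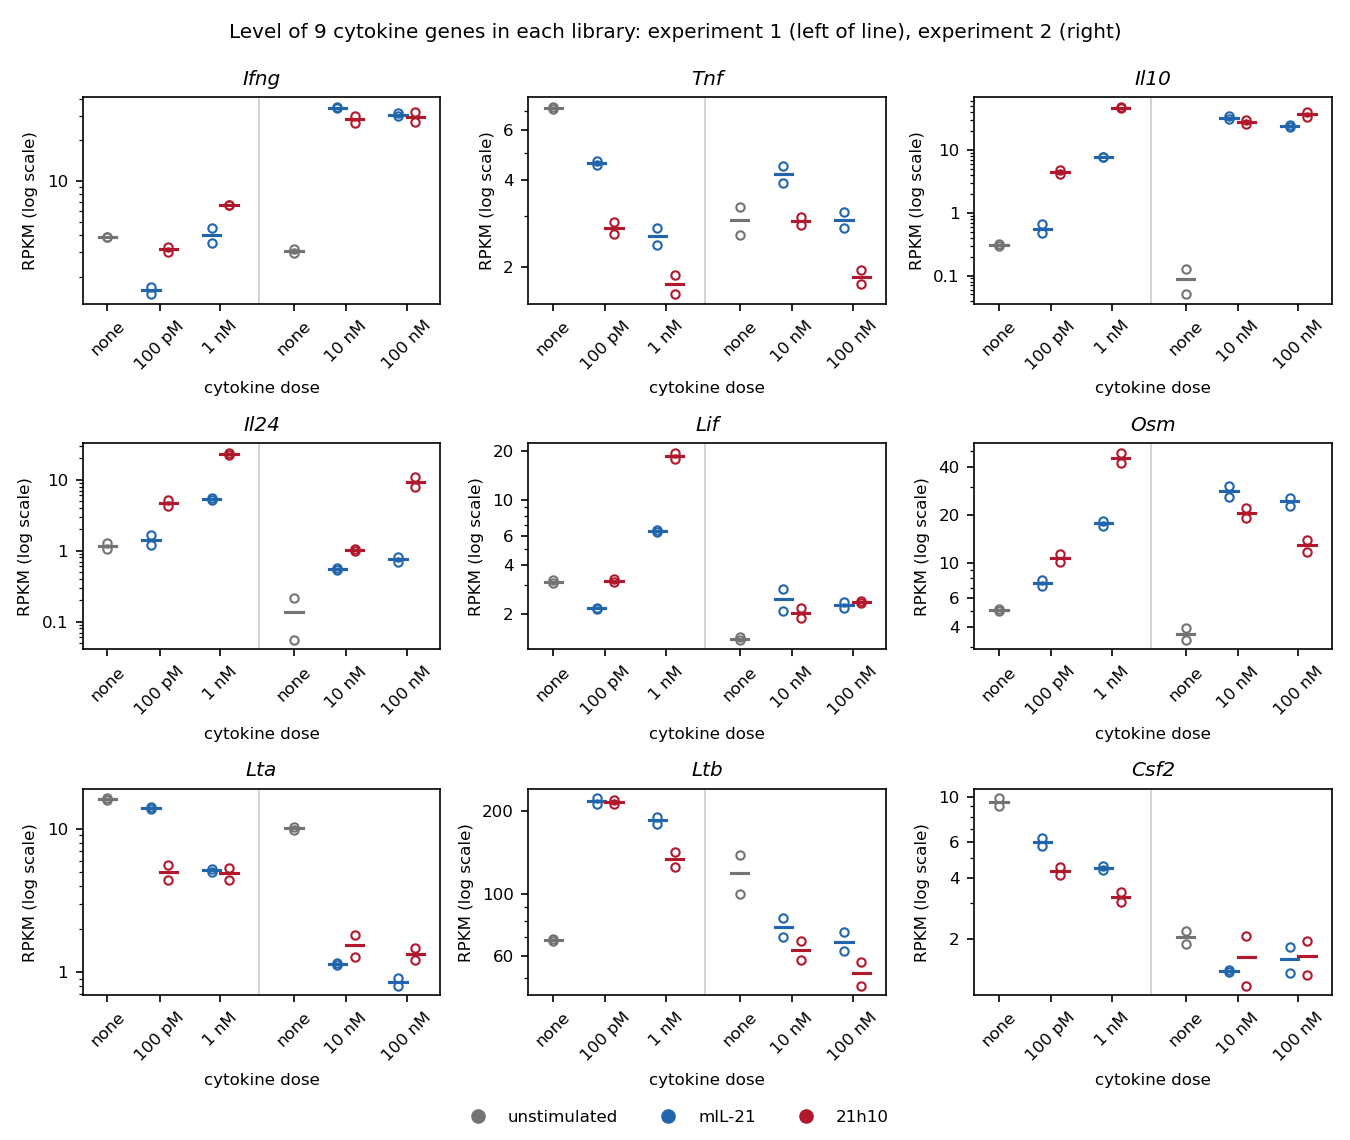
Level of the 9 tested cytokine genes in RPKM on a log axis, against cytokine dose, with a circle for each library and a bar for the mean of the duplicates. Experiment 1 is left of the grey line and experiment 2 right of it. Il10 climbs from 0.309 RPKM without cytokine to 47.4 RPKM under 21h10 at 1 nM, and Lta falls in both experiments.

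9 of the genes could be tested in both experiments, and Il2 had too few reads. Tests were made by edgeR with the quasi-likelihood method, and p-values were adjusted over all genes tested (Benjamini-Hochberg), and a gene was called when its adjusted p was under 0.05. Against unstimulated cells in experiment 1, the calls were 8 of 9 under mIL-21 at 100 pM (3 higher and 5 lower), 8 under mIL-21 at 1 nM (5 and 3), 8 under 21h10 at 100 pM (4 and 4) and 9 under 21h10 at 1 nM (6 and 3). Of all genes, 77.7%, 80.1%, 81.6% and 80.3% were called in these comparisons, so the share among the cytokine genes was near the background. In experiment 2 the calls were 8 of 9 under mIL-21 at 10 nM (6 and 2) and 7 with each of mIL-21 at 100 nM, 21h10 at 10 nM and 21h10 at 100 nM (5 and 2), where 46.2%, 46.2%, 50.1% and 50.8% of all genes were called.

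Between the cytokines, 8 of 9 genes differed at 100 pM (5 higher and 3 lower with 21h10), where 38.6% of all genes did, and 8 of 9 at 1 nM (5 and 3), where 37.7% did. At 10 nM none was called with edgeR, 4 had an unadjusted p under 0.05, and 0.00726% of all genes were called. At 100 nM 4 were called (2 and 2), against 8.53% of all genes. When 21h10 at 100 pM was set against mIL-21 at 1 nM, a dose 10 times higher, 3 of 9 genes were called, all lower with 21h10, where 0.737% of all genes were. The median log2 fold change of the 9 genes was 0.62 at 100 pM and 0.79 at 1 nM, and that of all genes tested was -0.01 at both doses.

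**Figure D2:**
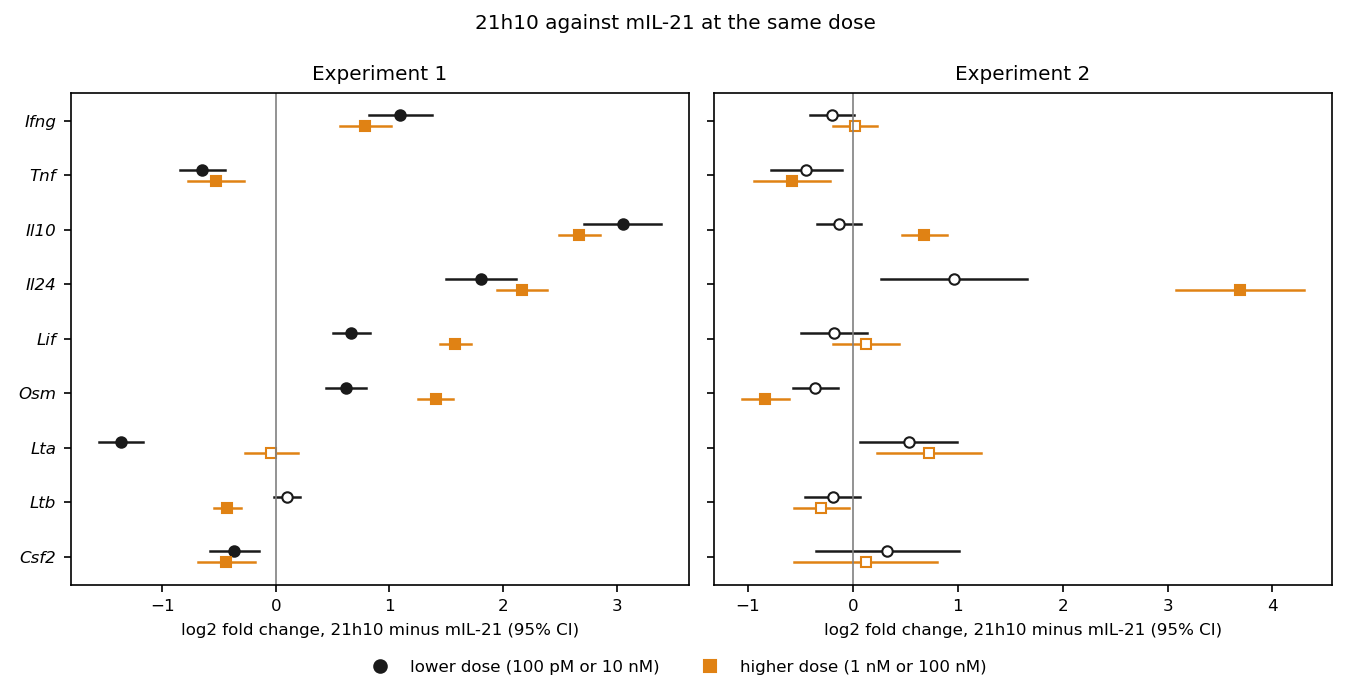
Log2 fold change of 21h10 minus mIL-21 at the same dose with its 95% confidence interval, for each tested gene, with experiment 1 on the left and experiment 2 on the right. Filled symbols passed an adjusted p of 0.05 and open ones did not. In experiment 1, Il10 lies furthest to the right (3.05 at 100 pM), and in experiment 2 Il24 at 100 nM does (3.69).

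Of the effector cytokines, Ifng encodes interferon γ, an activator of macrophages and of antigen presentation. It behaved differently in experiment 1 and experiment 2, where dose and experiment changed together and cannot be told apart. Its levels in experiment 1 were 3.87 and 3.87 RPKM without cytokine, 1.68 and 1.49 under mIL-21 at 100 pM, 3.02 and 3.29 under 21h10 at 100 pM, 4.52 and 3.53 under mIL-21 at 1 nM, and 6.73 and 6.63 under 21h10 at 1 nM. In experiment 2 they were 2.95 and 3.17 RPKM without cytokine, 34.1 and 35.0 with mIL-21 and 30.2 and 26.4 under 21h10 at 10 nM, and 31.4 and 30.0 with mIL-21 and 32.2 and 26.9 under 21h10 at 100 nM. The groups with cytokine in experiment 2 lay far above their controls, while the libraries under mIL-21 at 100 pM lay below theirs. Relative to unstimulated cells, Ifng fell by 1.37 on the log2 scale under mIL-21 at 100 pM (SE 0.13, adjusted p = 2.29e-08) and rose by 3.67 under mIL-21 at 10 nM (SE 0.12, adjusted p = 5.64e-13). With 21h10 at 100 pM the fall was 0.27 (Ifng log2 fold change -0.27, SE 0.10, adjusted p = 0.0238), a call that was lost whichever of the 4 libraries was left out (adjusted p from 0.0521 to 0.117). At 100 nM the cytokines differed in Ifng by 0.02 (95% interval -0.19 to 0.23), and their libraries overlapped. Ifng shares 25.9% of its exonic bases with Gm49751 on the same strand, so reads there cannot be assigned to either with certainty.

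Tnf encodes tumour necrosis factor, an inflammatory cytokine. In experiment 1 its levels were 7.23 and 7.08 RPKM without cytokine, 4.69 and 4.52 with mIL-21 and 2.59 and 2.87 under 21h10 at 100 pM, and 2.74 and 2.39 with mIL-21 and 1.86 and 1.60 under 21h10 at 1 nM. No treated library reached the level of the untreated ones, and at each dose both libraries with 21h10 were below both with mIL-21. Tnf fell by 1.98 on the log2 scale under 21h10 at 1 nM (SE 0.10, adjusted p = 2.62e-12) and by 0.72 under mIL-21 at 100 pM (SE 0.08, adjusted p = 5.29e-07). In experiment 2 it had 3.22 and 2.58 RPKM without cytokine, 3.91 and 4.48 with mIL-21 and 2.99 and 2.8 under 21h10 at 10 nM, and 3.10 and 2.73 with mIL-21 and 1.95 and 1.74 under 21h10 at 100 nM. There Tnf rose under mIL-21 at 10 nM by 0.71 (SE 0.16, adjusted p = 0.00182), and the 3 other treated groups did not pass the edgeR test. The fall under 21h10 at 100 nM (-0.35, adjusted p = 0.0977) passed with mapped-read library sizes (-0.653, adjusted p = 0.00703). It also passed with limma on log2(RPKM + 1) (-0.452, adjusted p = 0.00558) or log2(RPKM + 0.1) (-0.620, adjusted p = 0.00421). The median of all genes in these settings was -0.319, -0.292 and -0.336. At 100 nM Tnf was lower with 21h10 than with mIL-21 (log2 fold change -0.58, SE 0.17, adjusted p = 0.0458), a call that was lost with any of the 4 libraries left out (adjusted p from 0.0966 to 0.274).

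Il2 encodes the T cell growth factor IL-2. In experiment 1 it had 8 and 0 reads without cytokine, 1 and 2 with mIL-21 and 2 and 2 under 21h10 at 100 pM, 0 and 1 under mIL-21 at 1 nM, and 0 and 0 under 21h10 at 1 nM. All 10 libraries of experiment 2 had 0 reads, which allows up to 3 in each by counting error alone. A difference between groups was not detectable at this depth. A stretch of the Il2 transcript has a 99.5% identical copy in a transcript of Ntan1.

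Il10 encodes an anti-inflammatory cytokine that effector T cells can make, and Il24 another cytokine of the IL-10 family. The levels of Il10 in experiment 1 were 0.30 and 0.32 RPKM without cytokine (43 and 27 reads), 0.65 and 0.47 with mIL-21 and 4.86 and 4.07 under 21h10 at 100 pM, and 7.72 and 7.61 with mIL-21 and 48.8 and 46.1 under 21h10 at 1 nM. The groups did not overlap. Il10 rose over unstimulated cells by 7.34 on the log2 scale under 21h10 at 1 nM (SE 0.13, adjusted p = 2.58e-18) and by 0.81 under mIL-21 at 100 pM (SE 0.26, adjusted p = 0.00907), and the latter call was lost without the first unstimulated library (adjusted p = 0.0535) or the first with mIL-21 (adjusted p = 0.177). At 100 pM Il10 was 8.29-fold higher with 21h10 than with mIL-21 (log2 fold change 3.05, SE 0.16, adjusted p = 1.58e-10), and at 1 nM the log2 difference was 2.67 (SE 0.09, adjusted p = 3.66e-13). Even so, Il10 under 21h10 at 100 pM stayed below mIL-21 at 1 nM (log2 fold change -0.81, SE 0.10, adjusted p = 0.000274).

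In experiment 2, Il10 had 8 and 3 reads without cytokine, and its levels were 31.0 and 34.2 RPKM with mIL-21 and 29.6 and 26.3 under 21h10 at 10 nM, and 25.0 and 23.5 with mIL-21 and 39.7 and 34.0 under 21h10 at 100 nM. All treated groups lay within a narrow band far above the controls. Il10 was higher with 21h10 than under mIL-21 at 100 nM (log2 fold change 0.68, SE 0.10, adjusted p = 0.000425), and at 10 nM the difference was -0.13 (95% interval -0.35 to 0.08). The call at 100 nM was lost with limma on log2(RPKM + 0.1) (0.600, adjusted p = 0.0603). The myeloid marker sum, mostly Itgam in the treated groups, was 3.68 RPKM with mIL-21 and 10.2 under 21h10 at 100 pM. In the same order it was 10.6 and 13.7 at 1 nM, 17.5 and 15.9 at 10 nM, and 16.2 and 7.33 at 100 nM. Its part in the Il10 levels was not tested.

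Il24 followed Il10 in experiment 1, with 1.27 and 1.05 RPKM without cytokine, 1.66 and 1.18 with mIL-21 and 4.21 and 5.12 under 21h10 at 100 pM, and 5.43 and 5.22 with mIL-21 and 22.3 and 24.1 under 21h10 at 1 nM. The libraries under mIL-21 at 100 pM overlapped the controls. Il24 rose by 4.37 on the log2 scale under 21h10 at 1 nM against unstimulated cells (SE 0.12, adjusted p = 9.02e-16). In experiment 2 it was scarce in most groups, with 3 and 11 reads without cytokine, 0.57 and 0.53 RPKM with mIL-21 and 0.98 and 1.04 under 21h10 at 10 nM, 0.70 and 0.81 under mIL-21 at 100 nM, and 10.7 and 7.75 under 21h10 at 100 nM. The last group lay far above the other treated ones. Both libraries under 21h10 at 10 nM (44 and 53 reads) also lay above all with mIL-21 (32 to 40 reads), but Il24 was not called at 10 nM. The step of 21h10 from 10 to 100 nM raised Il24 by 3.22 on the log2 scale (SE 0.28, adjusted p = 3.17e-06). The same step of mIL-21 gave 0.49 (95% interval -0.22 to 1.21), and the difference of the cytokine contrast between these doses was 2.72 (Il24, SE 0.44, adjusted p = 0.00462). That difference between doses was called for 2 of the 9 genes, Il24 and Il10 (0.82, SE 0.14, adjusted p = 0.00749), and for 0.922% of all genes. The Il10 call was lost when any of 4 of the 8 libraries was left out (adjusted p from 0.0557 to 0.0905).

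Lif and Osm encode leukaemia inhibitory factor and oncostatin M, neighbouring genes of the IL-6 family whose products signal through gp130. In experiment 1 Osm had 5.0 and 5.18 RPKM without cytokine, 7.83 and 7.15 with mIL-21 and 11.3 and 10.2 under 21h10 at 100 pM, and 18.4 and 17.0 with mIL-21 and 49.0 and 42.1 under 21h10 at 1 nM. Lif had 3.22 and 3.08 RPKM without cytokine, 2.17 and 2.13 with mIL-21 and 3.26 and 3.11 under 21h10 at 100 pM, and 6.38 and 6.53 with mIL-21 and 19.6 and 17.9 under 21h10 at 1 nM. Both were highest under 21h10 at 1 nM, but Lif dipped below its control under mIL-21 at 100 pM. Osm rose by 3.24 under 21h10 at 1 nM (log2 fold change, SE 0.08, adjusted p = 2.1e-16) and Lif by 2.65 (SE 0.07, adjusted p = 3.25e-16), whereas Lif fell by 0.63 under mIL-21 at 100 pM (SE 0.08, adjusted p = 8.8e-07). For both, the advantage of 21h10 over mIL-21 was larger at 1 nM than at 100 pM, by 0.91 for Lif (SE 0.10, adjusted p = 9.11e-06) and 0.79 for Osm (SE 0.11, adjusted p = 8.49e-05). This difference between doses was called for 4 of the 9 genes and 18.4% of all genes.

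In experiment 2 the neighbours parted. Osm went from 3.91 and 3.30 RPKM without cytokine to 26.0 and 30.3 with mIL-21 and 22.1 and 19.1 under 21h10 at 10 nM, and to 25.6 and 22.9 with mIL-21 and 14.0 and 11.8 under 21h10 at 100 nM. Lif went from 1.42 and 1.38 RPKM to 2.08 and 2.83 with mIL-21 and 2.17 and 1.88 under 21h10 at 10 nM, and to 2.18 and 2.36 with mIL-21 and 2.31 and 2.39 under 21h10 at 100 nM. Osm was lower with 21h10 than under mIL-21 at 100 nM (log2 fold change -0.83, SE 0.10, adjusted p = 0.000108), the opposite direction to experiment 1, while Lif differed by 0.13 (95% interval -0.19 to 0.44). The step of 21h10 from 10 to 100 nM lowered Osm by 0.65 (log2 fold change -0.65, SE 0.11, adjusted p = 0.00139). That step was called for 4 of the 9 genes (Il24 and Il10 higher, Osm and Tnf lower) and 5.33% of all genes. The calls of Il10 (adjusted p from 0.0531 to 0.242) and of Tnf (adjusted p from 0.146 to 0.242) were lost whichever of the 4 libraries was left out. Over all 4 treated groups of experiment 2 the ratio of Lif to Osm within a library lay between 0.0800 and 0.203, and in the treated groups of experiment 1 between 0.278 and 0.425.

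**Figure D3:**
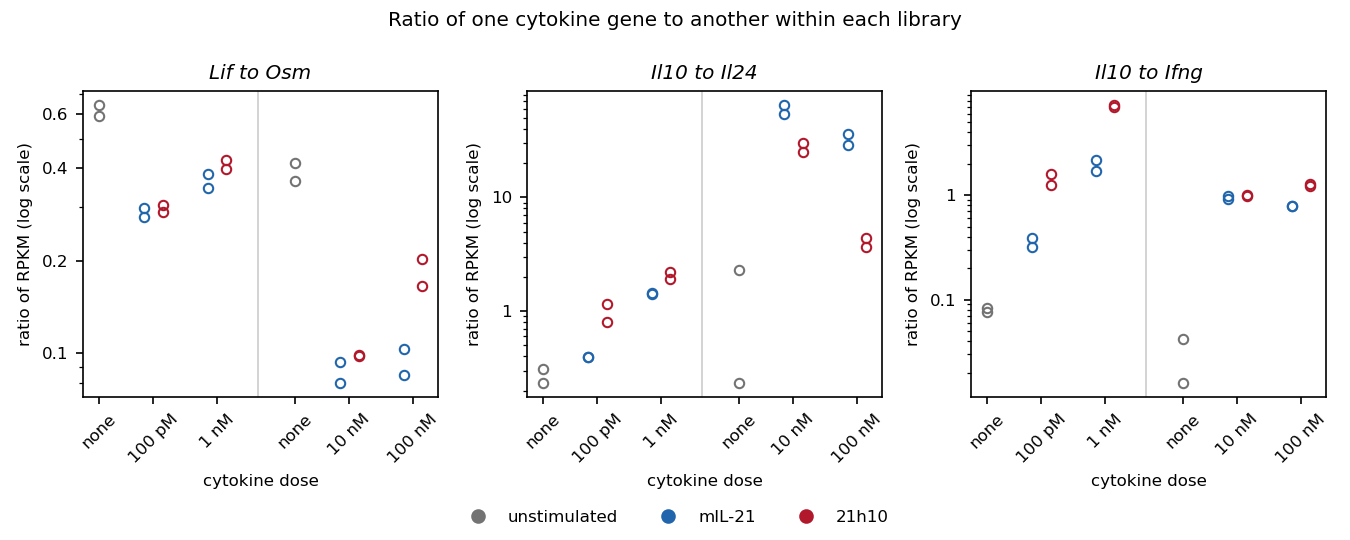
Ratio of RPKM values within each library on a log axis, against cytokine dose, for Lif to Osm, Il10 to Il24 and Il10 to Ifng, with a circle for each library and the experiments on either side of the grey line. The ratio of Il10 to Il24 spans 25.3 to 64.7 in 6 treated libraries of experiment 2 and is 3.70 and 4.39 under 21h10 at 100 nM. In that panel the unstimulated cells of experiment 2 rest on 3 to 11 reads per gene and library.

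Within experiment 1, Il10 and Ifng changed their balance with dose. Their ratio was 0.0767 and 0.0832 without cytokine in experiment 1, 0.390 and 0.316 with mIL-21 and 1.61 and 1.24 under 21h10 at 100 pM, and 1.71 and 2.16 with mIL-21 and 7.25 and 6.95 under 21h10 at 1 nM. In the 8 treated libraries of experiment 2 it was between 0.782 and 1.27.

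Lta and Ltb encode lymphotoxin α and β, TNF-family proteins that shape lymphoid tissue, and Lta lies next to Tnf. Lta had 16.3 and 15.9 RPKM without cytokine, 14.2 and 13.7 with mIL-21 and 4.38 and 5.61 under 21h10 at 100 pM, and 5.03 and 5.24 with mIL-21 and 5.37 and 4.43 under 21h10 at 1 nM. The libraries with 21h10 overlapped between its 2 doses, and those under mIL-21 at 1 nM lay within the same range. Lta was lower with 21h10 than under mIL-21 at 100 pM (log2 fold change -1.36, SE 0.09, adjusted p = 4.39e-09), and at 1 nM the difference was -0.04 (95% interval -0.27 to 0.19). The fall under mIL-21 at 100 pM against unstimulated cells (-0.29, adjusted p = 0.00542) was lost without the first unstimulated library (Lta, -0.246, adjusted p = 0.0587) and with limma on log2(RPKM + 1) (adjusted p = 0.0738) or log2(RPKM + 0.1) (adjusted p = 0.102). The change between doses was 1.32 (Lta, SE 0.14, adjusted p = 6.41e-06). In experiment 2 Lta went from 10.3 and 9.85 RPKM to 1.13 and 1.17 with mIL-21 and 1.27 and 1.82 under 21h10 at 10 nM, and 0.80 and 0.91 with mIL-21 and 1.47 and 1.22 under 21h10 at 100 nM. It fell by 3.33 on the log2 scale under mIL-21 at 100 nM (Lta, SE 0.21, adjusted p = 3.46e-09). Between the cytokines at 100 nM, Lta was higher with 21h10 by 0.723, which was not called (edgeR, adjusted p = 0.0666). With no filter on low counts this difference was called (0.700, adjusted p = 0.0456).

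Ltb rose in experiment 1 and fell in experiment 2. It had 67.8 and 69.3 RPKM without cytokine in experiment 1, 222 and 211 with mIL-21 and 212 and 219 under 21h10 at 100 pM, and 180 and 191 with mIL-21 and 142.6 and 125.5 under 21h10 at 1 nM. In experiment 2 it had 139.2 and 100.2 RPKM without cytokine, 70.3 and 82.4 with mIL-21 and 67.8 and 57.8 under 21h10 at 10 nM, and 72.9 and 62.3 with mIL-21 and 57.3 and 46.8 under 21h10 at 100 nM. Treated and control libraries did not overlap in either experiment. The log2 fold change of Ltb against unstimulated cells was 1.68 under 21h10 at 100 pM (SE 0.06, adjusted p = 1.66e-14) and -0.90 under 21h10 at 100 nM (SE 0.12, adjusted p = 2.5e-05). The call for mIL-21 at 10 nM (-0.47, SE 0.12, adjusted p = 0.00562) was lost without the first unstimulated library of experiment 2 (Ltb, -0.25, adjusted p = 0.0856) or the first with mIL-21 (-0.39, adjusted p = 0.0615). At 1 nM Ltb was lower with 21h10 than with mIL-21 (-0.43, SE 0.06, adjusted p = 1.05e-05). At 100 nM the difference in Ltb was -0.301 and was not called (edgeR, adjusted p = 0.153). It was called with no filter on low counts (-0.324, adjusted p = 0.0132) and with the compared groups alone (-0.292, adjusted p = 0.0394).

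Csf2 encodes GM-CSF, a growth factor for myeloid cells. It had 9.86 and 9.03 RPKM without cytokine in experiment 1, 5.76 and 6.31 with mIL-21 and 4.14 and 4.53 under 21h10 at 100 pM, and 4.36 and 4.58 with mIL-21 and 3.40 and 3.05 under 21h10 at 1 nM. All treated libraries were below the controls, and Csf2 fell by 1.48 under 21h10 at 1 nM (log2 fold change, SE 0.10, adjusted p = 3.57e-10). In experiment 2 it had 2.2 and 1.9 RPKM without cytokine and between 1.18 and 2.07 in the treated libraries, and none of the 4 treated groups passed the test. Csf2 shares 12% of its exonic bases with Gm12223 on the opposite strand, and use of strand in the counting is not given in the sources used here. The calls between cytokines at 100 pM (-0.37, adjusted p = 0.00913) and at 1 nM (-0.44, adjusted p = 0.0074) were each lost without a single library (Csf2, adjusted p from 0.0716 to 0.103).

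**Figure D4:**
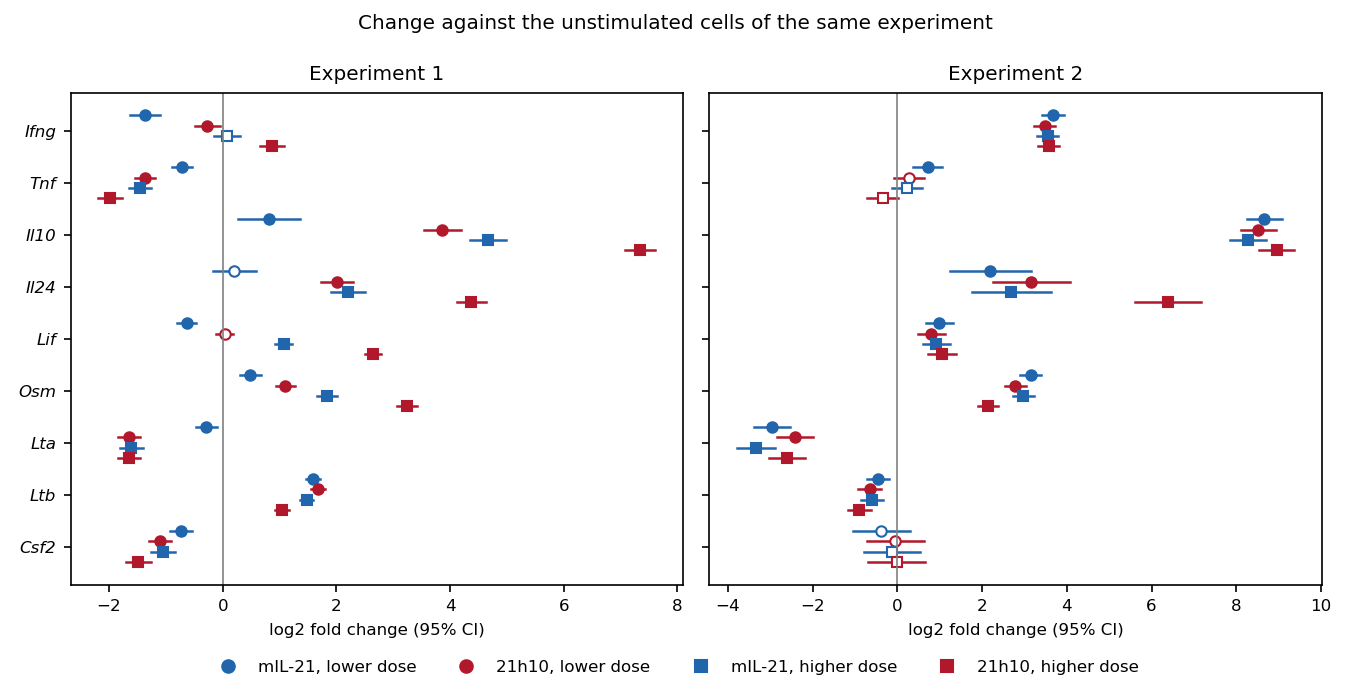
Log2 fold change against unstimulated cells of the same experiment with its 95% confidence interval, for each tested gene and each of the 4 treated groups of experiment 1 (left) and experiment 2 (right). Filled symbols passed an adjusted p of 0.05. Ltb lies right of 0 in experiment 1 and left of it in experiment 2, and Ifng moves from between -1.37 and 0.87 in experiment 1 to between 3.48 and 3.67 in experiment 2.

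Raising the dose of mIL-21 from 100 pM to 1 nM changed 8 of 9 genes (5 up and 3 down, 34.5% of all genes), and the same step of 21h10 changed 8 (5 and 3, 39.2%). Ifng, Il10, Il24, Lif and Osm were the 5 that rose in each. The Csf2 call for mIL-21 (-0.31, adjusted p = 0.0356) was lost with DESeq2 (adjusted p = 0.0615), with the compared groups alone (adjusted p = 0.0544) and without either library at 100 pM or the first at 1 nM (adjusted p from 0.0509 to 0.217). That for 21h10 (Csf2, -0.38, adjusted p = 0.0117) was lost without the second library at 100 pM (adjusted p = 0.0815) or at 1 nM (adjusted p = 0.113). Lif rose by 2.62 with the step of 21h10 (log2 fold change, SE 0.07, adjusted p = 1.43e-14) and by 1.70 with that of mIL-21 (SE 0.08, adjusted p = 2.03e-11). Between 10 and 100 nM of mIL-21, none of the 9 genes passed the edgeR test and 2 had an unadjusted p under 0.05, and 0.00% of all genes were called.

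Further gene lists were also chosen with earlier results of these data known. Of 46 other cytokine genes listed, 24 could be tested in experiment 1. At 1 nM, 11 of them differed between the cytokines, against 37.7% of all genes (9 higher and 2 lower with 21h10, median log2 fold change 0.02, against -0.01 over all genes). The largest differences were in Il17f, Il17a and Il6, which encode inflammatory cytokines. Il17a had a mean of 2.73 RPKM with 21h10 and 0.340 under mIL-21 at 1 nM (log2 fold change 3.06, SE 0.24, adjusted p = 2.07e-08). Il17f was scarce, at 0.903 and 0.0553 RPKM (3.95, SE 0.48, adjusted p = 4.77e-06), so its fold change rests on a very low level under mIL-21. At 100 nM, 5 of 18 tested were called (3 and 2), against 8.53% of all genes. Il6 was scarce and higher with 21h10 there, at 0.594 against 0.0401 RPKM (3.89, SE 0.96, adjusted p = 0.019). Il18 was lower, at 5.31 against 19.6 RPKM (-1.80, SE 0.15, adjusted p = 1.06e-06). Of the other TNF-family ligands, 6 of 12 tested were called at 1 nM (3 and 3, against 37.7% of all genes). At 100 nM 2 of 10 were called, both lower (8.53% of all). Tnfsf13b, the B cell factor BAFF, was lower with 21h10 at 1 nM, with 0.222 against 0.951 RPKM (-2.00, SE 0.24, adjusted p = 3.5e-06).

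Among the receptors for these cytokines, 11 of 19 tested were called at 1 nM (4 higher and 7 lower with 21h10) and 5 of 17 at 100 nM (2 and 3), beside 37.7% and 8.53% of all genes. Il2ra, the α chain of the IL-2 receptor, was higher under 21h10 at 1 nM, at 466 against 276 RPKM (log2 fold change 0.81, SE 0.04, adjusted p = 2.55e-10), and Il10ra was lower, at 12.2 against 21.5 RPKM (-0.77, SE 0.05, adjusted p = 7.99e-10). Of 45 factors known to act on cytokine gene transcription, 36 were called at 1 nM (28 and 8, median 0.35) and 7 at 100 nM (7 and 0, median 0.00), beside the same shares of all genes, 37.7% and 8.53%. Eomes, a T-box factor, was higher under 21h10 at 100 nM, at 41.8 against 8.82 RPKM (log2 fold change 2.32, SE 0.10, adjusted p = 1.44e-09). Of 14 factors known to act on cytokine mRNA decay or translation, 8 were called at 1 nM (7 and 1, against 37.7% of all genes). Zfp36, which promotes decay of cytokine mRNAs, was one of those higher with 21h10 (0.82, SE 0.06, adjusted p = 8.66e-09). None of the 14 was called with edgeR at 100 nM.

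The genes with the most similar profile were found by the root mean square difference of log2 CPM over the 10 group means, centred within each experiment, among 13239 genes. For Il10 the nearest was Hlx, a homeobox factor, at 0.699, where the Il10 profile itself departs from its mean by 2.99. For Ifng the 3 nearest were the chemokine genes Ccl3 (0.313) and Ccl6 (0.337) and then Snora31 (0.368), with an own departure of 1.13. The nearest to Osm was Sema7a (0.217, own departure 1.14), to Tnf Pmepa1 (0.150, own 0.537) and to Lif the amino acid transporter gene Slc7a5 (0.273, own 0.856). Il24 had Fam19a3 (0.691, own 1.8), Lta Fam124b (0.273, own 0.973), Ltb Zer1 (0.104, own 0.483) and Csf2 Brpf3 (0.0698, own 0.359). Some gene is nearest to any profile, and a profile that departs little from its mean has small distances. Whether these genes lay closer than expected was not tested.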

How the data were processed

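mRNA libraries were sequenced by the authors on an Illumina NovaSeq, and reads were mapped to mm10 (GRCm38) with TopHat 2.0.11. The submitters' processing notes also name Bowtie2 2.2.6, SAMtools 0.1.8, bedtools 2.25.0 and edgeR. The deposited tables hold raw read counts per RefSeq transcript, which the authors counted on exons, and RPKM values, which the authors made from these counts, transcript lengths and mapped reads. The counting tool and its use of strand are not given in the sources used here.

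The 10 genes and the lists were chosen with earlier results of these data known. Counts were tested in R 4.3.3 with edgeR 4.0.16 (TMM, filterByExpr at min.count 10 and min.total.count 15, glmQLFit, glmQLFTest), in 1 fit of the 10 libraries of each experiment, with group as factor and Benjamini-Hochberg adjustment over 13974 genes in experiment 1 and 13772 in experiment 2. Adjusted p under 0.05 was called, and 19 comparisons were made. A further fit of all 20 libraries, added after the data were seen, compared the experiments. From each list the 3 genes with the largest difference between the cytokines at a matched dose, past the threshold and with a mean of at least 0.5 RPKM in the higher group, could be named. Alternatives were DESeq2 1.42.0, limma 3.58.1 on log2(RPKM + 1) or log2(RPKM + 0.1), no filter, library sizes from mapped reads, the most-read transcript, the compared groups alone, a replicate block and each library left out. Overlaps and copies came from GENCODE vM21 and BLAST 2.17.0 with Python 3.11.15, with at least 90% identity over 100 bases. The test script was tested on simulated data. Intervals and floors cover counting error or library spread only, and precision rests on n = 2 (biological coefficient of variation 4.32% and 8.80%).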

Additional observations from a re-analysis of the deposited data

Results flagged for a closer look

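The effect of 21h10 against mIL-21 differed between the doses of an experiment for several genes, by the interaction term of the edgeR fit. Between 1 nM and 100 pM the log2 difference was 0.91 for Lif, 0.79 for Osm, 1.32 for Lta and -0.52 for Ltb (SE 0.08, adjusted p = 0.000167). Between 100 nM and 10 nM it was 0.82 for Il10 and 2.72 for Il24.

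The mean response of the 4 treated groups against unstimulated cells differed between the experiments for 8 of the 9 genes, where 64.7% of all genes were called in a fit of all 20 libraries. Experiment 2 minus experiment 1 was 3.68 for Ifng (-0.16 in experiment 1 and 3.51 in experiment 2), 4.38 for Il10 (4.18 and 8.56), 1.53 for Tnf (-1.37 and 0.16), 1.35 for Il24 (2.21 and 3.57), 1.03 for Osm (1.67 and 2.71) and 0.88 for Csf2 (-1.08 and -0.20). It was -1.59 for Lta (-1.29 and -2.88) and -2.16 for Ltb (1.45 and -0.71). For Lif it was 0.10 (SE 0.13, adjusted p = 0.519). Dose and experiment changed together, so they cannot be told apart, and the unstimulated cells already differed in level between the experiments.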

How the results depend on the processing

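The calls of the 9 genes rest on duplicates, and calls with an adjusted p near 0.05 changed most. The count called for 21h10 at 100 against 10 nM was 4, and 2 with mapped-read library sizes, 2 with limma on log2(RPKM + 1), and 2 to 2 with a library left out. That for the difference of the cytokine contrast between 100 and 10 nM was 2, and 1 with limma on log2(RPKM + 0.1), and 1 to 2 with a library left out. The other 17 counts stayed within 1.5 times of their value. With mapped-read sizes the median of all genes was as low as -0.319 (21h10 at 100 nM against unstimulated cells), against -0.0169 as reported.

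No called value changed sign. Values that changed sign were not called as reported. The furthest apart was Il10 in the difference of the cytokine contrast between 1 nM and 100 pM, -0.38 as reported and 0.675 with limma on log2(RPKM + 1) (adjusted p = 0.00155). Under mIL-21 at 100 pM the mean of Il10 was 0.561 RPKM, less than the 1 added in that setting. The cause was not tested. With mapped-read sizes it was -0.007 for Ltb (21h10 100 pM against mIL-21 100 pM), -0.058 for Lta (21h10 1 nM against 21h10 100 pM), -0.055 for Ifng (21h10 100 nM against mIL-21 100 nM) and -0.005 for Tnf (21h10 10 nM against unstimulated). With limma on log2(RPKM + 1) it was -0.006 for Ltb (21h10 100 pM against mIL-21 100 pM), -0.02 for Lta (21h10 1 nM against 21h10 100 pM), 0.025 for Csf2 (contrast, 1 nM minus 100 pM) and -0.059 for Ifng (21h10 100 nM against mIL-21 100 nM). With limma on log2(RPKM + 0.1) it was -0.006 for Ltb (21h10 100 pM against mIL-21 100 pM), -0.023 for Lta (21h10 1 nM against 21h10 100 pM), 0.007 for Csf2 (contrast, 1 nM minus 100 pM) and -0.061 for Ifng (21h10 100 nM against mIL-21 100 nM). With no filter it was -0.003 for Ifng (21h10 100 nM against mIL-21 100 nM). With DESeq2 it was 0.003 for Csf2 (21h10 100 nM against unstimulated). With the compared groups alone it was 0.004 for Csf2 (21h10 100 nM against unstimulated). With a library left out, Lif ran from -0.03 to 0.107 (21h10 100 pM against unstimulated), -0.358 to 0.018 (21h10 10 nM against mIL-21 10 nM), -0.24 to 0.136 (mIL-21 100 nM against mIL-21 10 nM). With a library left out, Ifng ran from -0.058 to 0.222 (mIL-21 1 nM against unstimulated), -0.094 to 0.111 (21h10 100 nM against mIL-21 100 nM), -0.019 to 0.185 (21h10 100 nM against 21h10 10 nM). With a library left out, Lta ran from -0.15 to 0.087 (21h10 1 nM against mIL-21 1 nM), -0.211 to 0.077 (21h10 100 pM against mIL-21 1 nM), -0.115 to 0.173 (21h10 1 nM against 21h10 100 pM), -0.056 to 0.493 (contrast, 100 nM minus 10 nM), -0.428 to 0.121 (21h10 100 nM against 21h10 10 nM). With a library left out, Csf2 ran from -0.119 to 0.017 (21h10 100 pM against mIL-21 1 nM), -0.143 to 0.009 (contrast, 1 nM minus 100 pM), -0.548 to 0.303 (21h10 10 nM against unstimulated), -0.361 to 0.261 (21h10 100 nM against unstimulated), -0.228 to 0.395 (21h10 100 nM against mIL-21 100 nM), -0.385 to 0.087 (mIL-21 100 nM against unstimulated), -0.008 to 0.464 (mIL-21 100 nM against mIL-21 10 nM), -0.571 to 0.283 (contrast, 100 nM minus 10 nM), -0.327 to 0.527 (21h10 100 nM against 21h10 10 nM), -0.17 to 0.681 (21h10 10 nM against mIL-21 10 nM). With a library left out, Il24 ran from -0.075 to 0.399 (mIL-21 100 pM against unstimulated).

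The replicate block moved no count or call. Same-numbered duplicates deviated with correlations of -0.0617 to 0.0293 in experiment 1 and -0.167 to 0.227 in experiment 2, so they shared little deviation. This cannot show whether same-numbered libraries came from the same mouse or preparation, and the labels do not say.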
